A study of Mus musculus with 16 samples.

Results

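Map3k12, Foxp1 and Arpp21 are 3 genes chosen from 16 RNA libraries of primary mouse hippocampal cultures because their response to bicuculline differed between control cultures and cultures with less Dnmt3a. They are the 3 genes with an adjusted p-value under 0.05 for the interaction of knockdown and bicuculline among 17222 tested genes, in a model that blocks on the replicate number. The cultures came from newborn C57Bl/6N mice. They were infected with a recombinant adeno-associated virus that expresses a short hairpin RNA from the U6 promoter and GFP from the chicken β-actin promoter, and the controls carried the same kind of virus. The hairpin was either Control-shRNA (shControl) or Dnmt3a1-shRNA2 (shDnmt3a1), and the cultures were either left in baseline (0 h) or treated for 4 h with bicuculline, a blocker of GABA-A receptors that makes neuronal networks fire in bursts. Each of the 4 groups has 4 libraries, numbered 1 to 4, from independent neuronal preparations. A single knockdown construct was sequenced, so an effect of losing Dnmt3a1 and any other effect of that hairpin cannot be told apart.

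Dnmt3a1 is the long isoform of the de novo DNA methyltransferase Dnmt3a, an enzyme that adds methyl groups to cytosines, mostly in CpG dinucleotides. Map3k12 encodes DLK, dual leucine zipper kinase, which sits at the top of a kinase cascade that activates JNK and the transcription factor c-Jun in neurons under stress or axon injury. Foxp1 encodes a forkhead transcription factor of hippocampal, cortical and striatal neurons that forms dimers with its paralogs, and its loss in humans disturbs brain development and speech. Arpp21 encodes a neuronal phosphoprotein that protein kinase A phosphorylates in response to cAMP. Its short form acts on calmodulin signalling and its long form binds RNA, and an intron of the gene carries the hairpin of a brain-enriched microRNA.

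All 3 genes lie on the minus strand of GRCm38, the genome build of the files, with coordinates from GENCODE release M21. Map3k12 (ENSMUSG00000023050.9) spans chromosome 15 from 102497646 to 102517064 and has 8 annotated transcripts. Foxp1 (ENSMUSG00000030067.17) spans chromosome 6 from 98925338 to 99522721 and has 31. Arpp21 (ENSMUSG00000032503.18) spans chromosome 9 from 112065091 to 112235938 and also has 31. RefSeq on GRCm38.p6 gave promoter windows, from 250 bases before to 50 bases after a transcription start, at 2 starts of Map3k12, 3 of Foxp1 and 9 of Arpp21. The window nearest the 5′ end of each gene is shown because CpG dinucleotides, here in capitals, are the usual substrate of the enzyme that was knocked down. The sequences read 5′ to 3′ on the minus strand.
Map3k12, chr15:102516955-102517254: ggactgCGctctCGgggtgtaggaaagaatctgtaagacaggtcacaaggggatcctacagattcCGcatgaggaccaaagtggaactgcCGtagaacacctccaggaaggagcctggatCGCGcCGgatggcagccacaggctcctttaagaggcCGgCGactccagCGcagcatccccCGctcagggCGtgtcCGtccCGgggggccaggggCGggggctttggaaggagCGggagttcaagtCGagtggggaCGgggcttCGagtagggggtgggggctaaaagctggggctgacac
Foxp1, chr6:99520944-99521243: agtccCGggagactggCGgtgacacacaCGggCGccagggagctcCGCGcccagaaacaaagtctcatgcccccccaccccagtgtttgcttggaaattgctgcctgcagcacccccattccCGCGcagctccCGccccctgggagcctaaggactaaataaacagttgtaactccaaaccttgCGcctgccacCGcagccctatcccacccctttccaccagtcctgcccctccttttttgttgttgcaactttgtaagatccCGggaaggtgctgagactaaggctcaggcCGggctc
Arpp21, chr9:112233673-112233972: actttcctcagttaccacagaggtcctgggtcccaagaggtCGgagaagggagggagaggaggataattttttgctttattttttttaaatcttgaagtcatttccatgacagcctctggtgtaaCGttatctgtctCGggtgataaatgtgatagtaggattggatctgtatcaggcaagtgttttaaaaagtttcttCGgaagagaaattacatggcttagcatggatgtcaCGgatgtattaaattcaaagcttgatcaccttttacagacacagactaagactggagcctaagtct
These windows hold 19 CpG dinucleotides in Map3k12, 13 in Foxp1 and 5 in Arpp21. Over all 32841 windows of full length the median was 7. As many CpG dinucleotides as in the Map3k12 window were present in 28.1% of all windows, as many as in the Foxp1 window in 37.9% and as many as in the Arpp21 window in 62.0%. Across all their annotated starts, the shown ones included, the counts ran from 19 to 23 in Map3k12, from 5 to 44 in Foxp1 and from 1 to 12 in Arpp21. Methylation was not measured in these libraries, and the tables do not say which starts were in use.

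The 16 libraries held 28912697 to 29586355 estimated counts each, so depth differed little between groups. Dnmt3a, the targeted gene, fell from 312 ± 13.8 CPM (read counts relative to library size, scaled by the TMM method; SD, n = 4) to 44.5 ± 3.66 CPM in baseline and from 327 ± 11.8 to 45.3 ± 1.72 CPM with bicuculline (edgeR, adjusted p = 6.45e-15 and 5.58e-15). The count sums all isoforms of Dnmt3a. The activity-regulated genes Arc, Fos and Npas4 rose in both shRNA groups by 5.62 to 7.30 on the log2 scale. Their interaction values were 0.46 (SE 0.299), -0.19 (SE 0.232) and -0.66 (SE 0.277) and did not pass the test (edgeR, adjusted p = 0.688, 0.858 and 0.489). In baseline Fos was higher with the knockdown (log2 0.58, edgeR, adjusted p = 0.026), while Arc and Npas4 did not pass (edgeR, adjusted p = 0.25 and 0.0519). With bicuculline the knockdown difference did not pass for Arc, Fos or Npas4 (edgeR, adjusted p = 0.789, 0.0537 and 0.796). Neuronal markers were abundant in every library, with 4231 to 5669 CPM summed over 5 genes, while 4 microglial markers summed to 1.48 to 4.28 CPM.

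Map3k12 was lower with bicuculline and lower with the knockdown, and the response to bicuculline was proportionally larger in the knockdown cultures. In Control-shRNA baseline the replicates 1 to 4 held 141, 133, 126 and 135 CPM. With bicuculline they held 111, 103, 98.4 and 108 CPM. The control groups did not overlap. In Dnmt3a1-shRNA2 baseline the libraries held 81.2, 71.1, 66.2 and 76.7 CPM. With bicuculline they held 35.8, 40.3, 40.2 and 39.5 CPM. The 4 groups therefore fell into 4 separate ranges, with the order Control-shRNA baseline, Control-shRNA bicuculline, Dnmt3a1-shRNA2 baseline, Dnmt3a1-shRNA2 bicuculline from high to low. The group means were 134 ± 6.15, 105 ± 5.61, 73.8 ± 6.52 and 39.0 ± 2.12 CPM (SD, n = 4 each). With bicuculline the level was 78.7% of baseline in Control-shRNA (log2 fold change -0.35, SE 0.057) and 53.0% of baseline in Dnmt3a1-shRNA2 (-0.92, SE 0.060). These 2 responses chose the gene and are given with no test.

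Foxp1 was higher with bicuculline in both shRNA groups and lower with the knockdown in baseline. The Control-shRNA libraries 1 to 4 held 54.8, 54.9, 63.4 and 61.2 CPM in baseline. With bicuculline they held 81.1, 88.3, 85.2 and 83.0 CPM. The Dnmt3a1-shRNA2 baseline libraries were all below the control libraries, at 38.9, 38.2, 44.8 and 42.1 CPM. With bicuculline the knockdown libraries held 92.7, 81.7, 90.4 and 81.5 CPM, a range that overlapped that of Control-shRNA with bicuculline. The group means were 58.6 ± 4.39, 84.4 ± 3.09, 41.0 ± 3.03 and 86.6 ± 5.84 CPM (SD, n = 4 each, in the same order of groups). The response was 1.44-fold in Control-shRNA (log2 0.53, SE 0.059) and 2.11-fold in Dnmt3a1-shRNA2 (log2 1.08, SE 0.060). In level, the knockdown cultures stood at 70.0% of control in baseline and at 102% of control with bicuculline.

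Arpp21 was the most abundant of the 3 genes, and as with Foxp1 its bicuculline groups lay above its baseline groups, with the lowest values in Dnmt3a1-shRNA2 baseline. The Control-shRNA libraries 1 to 4 held 277, 260, 271 and 284 CPM in baseline. With bicuculline they held 713, 460, 551 and 525 CPM, and the spread of this group was the widest because of replicate 1. The Dnmt3a1-shRNA2 libraries held 145, 143, 142 and 141 CPM in baseline. With bicuculline they held 567, 489, 459 and 529 CPM, within the range of Control-shRNA with bicuculline except for replicate 3, which lay just under its lower end. The group means were 273 ± 10.1, 562 ± 108, 143 ± 1.79 and 511 ± 46.9 CPM (SD, n = 4 each). The response was 2.04-fold in Control-shRNA (log2 1.03, SE 0.076) and 3.56-fold in Dnmt3a1-shRNA2 (log2 1.83, SE 0.078). The knockdown cultures stood at 52.3% of control in baseline and at 91.4% of control with bicuculline.

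**Figure D1:**
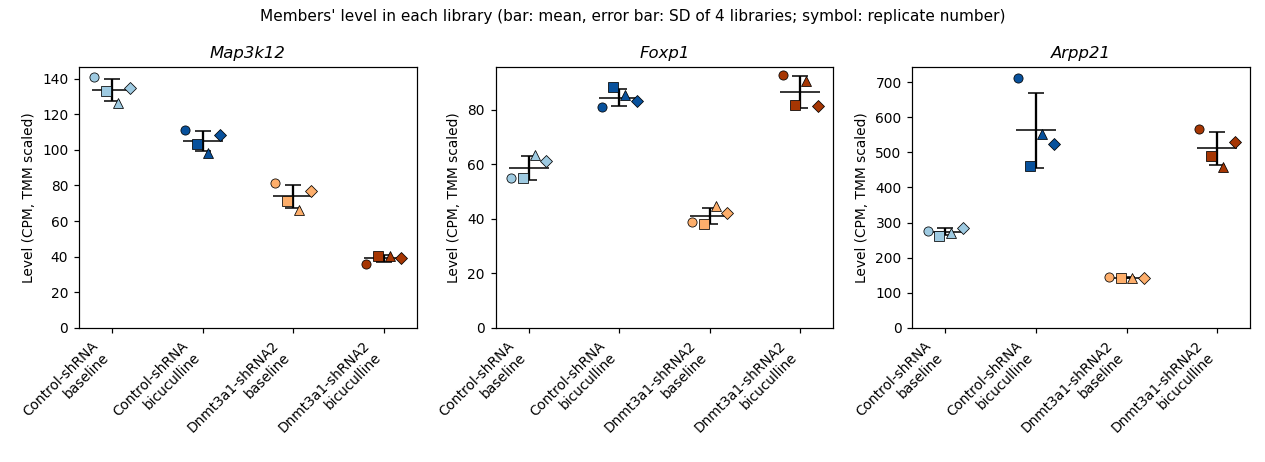
Level of Map3k12, Foxp1 and Arpp21 in each of the 16 libraries, in TMM-scaled CPM on the vertical axis, by group on the horizontal axis; symbols mark the replicate number, the bars the mean and the error bars the SD of 4 libraries. The 4 groups of Map3k12 do not overlap, while for Foxp1 and Arpp21 the bicuculline groups overlap at 84.4 and 86.6 CPM and at 562 and 511 CPM (means) and the baseline groups do not.

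A clear separation between groups was common in these cultures. Baseline and bicuculline did not overlap in CPM in 39.7% of all tested genes for Control-shRNA and in 40.4% for Dnmt3a1-shRNA2. The shRNA groups did not overlap in 19.9% of genes in baseline and in 20.9% with bicuculline. All 3 genes were among the separated genes in the first 3 of these comparisons, and Map3k12 alone was also separated between shRNAs with bicuculline. In per-length units, which allow levels to be compared between genes, Arpp21 had a mean of 296 TPM over the 16 libraries, Map3k12 44.5 TPM and Foxp1 38.8 TPM. Arpp21 thus lay above 97.0% of the tested genes, Map3k12 above 77.8% and Foxp1 above 75.2%.

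The effect averaged over the other factor is a different contrast from the interaction that chose the genes, and it was tested for each gene. Averaged over both shRNAs, Map3k12 fell by 0.63 on the log2 scale with bicuculline (SE 0.041), and Foxp1 and Arpp21 rose by 0.80 (SE 0.042) and 1.43 (SE 0.054). The adjusted p-values were 4.18e-10, 2.48e-11 and 3.03e-13 (edgeR's quasi-likelihood test, Benjamini-Hochberg over all 17222 genes). At this threshold 63.7% of all tested genes were called, so a call was the common outcome. Averaged over baseline and bicuculline, all 3 genes were lower in the knockdown cultures, Map3k12 by a log2 difference of -1.14 (SE 0.041), Foxp1 by -0.24 (SE 0.042) and Arpp21 by -0.53 (SE 0.053). The adjusted p-values were 2.24e-12, 2.00e-04 and 5.93e-07, with 42.5% of all tested genes called and 21.1% called as lower. Among all genes, 0.552% were at least as far below control as Map3k12, against 18.4% for Foxp1 and 5.86% for Arpp21. A choice by adjusted p also favours genes with a small spread between libraries, and such genes pass any test more easily.

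The interaction itself was -0.57 (SE 0.082) for Map3k12, 0.55 (SE 0.084) for Foxp1 and 0.80 (SE 0.107) for Arpp21, on the log2 scale as the Dnmt3a1-shRNA2 response minus the Control-shRNA response. In fold terms the response ratio was multiplied by 0.673, 1.46 and 1.75. The response kept its direction in both shRNA groups for each gene, and it was the larger one in the knockdown cultures each time. The values that chose them were adjusted p-values of 0.0149 for Arpp21, 0.0216 for Map3k12 and 0.031 for Foxp1 (edgeR, with the replicate block), and 0.0174% of all tested genes were called. Just outside the threshold lay Mapk4, Trim71 and Rbm11, each at an adjusted p of 0.0523. Mapk4, an atypical MAP kinase, had a smaller response in the knockdown cultures, with log2 1.57 in Control-shRNA and 1.12 in Dnmt3a1-shRNA2 and an interaction of -0.46. Trim71 and Rbm11, both RNA-binding proteins, had larger ones, from 0.28 to 1.28 and from -0.65 to -1.69, at mean levels of 4.76 and 3.32 CPM. Without the replicate block no gene was called (edgeR, smallest adjusted p = 0.147), while 852 genes had an unadjusted p under 0.05 against 1564 with the block.

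**Figure D2:**
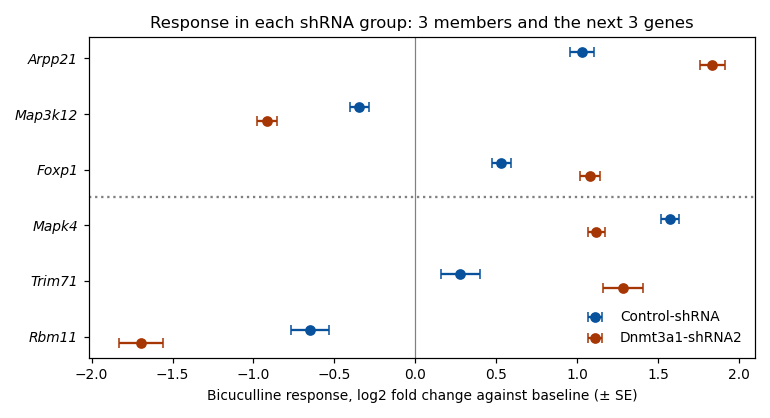
Bicuculline response as a log2 fold change against baseline (horizontal axis, ± SE from edgeR) in Control-shRNA and Dnmt3a1-shRNA2 cultures for the 3 chosen genes, above the dotted line, and the next 3 genes in the order of the interaction p, below it. Arpp21 moves from 1.03 to 1.83, Map3k12 from -0.35 to -0.92 and Foxp1 from 0.53 to 1.08, while Mapk4 moves towards 0.

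**Figure D3:**
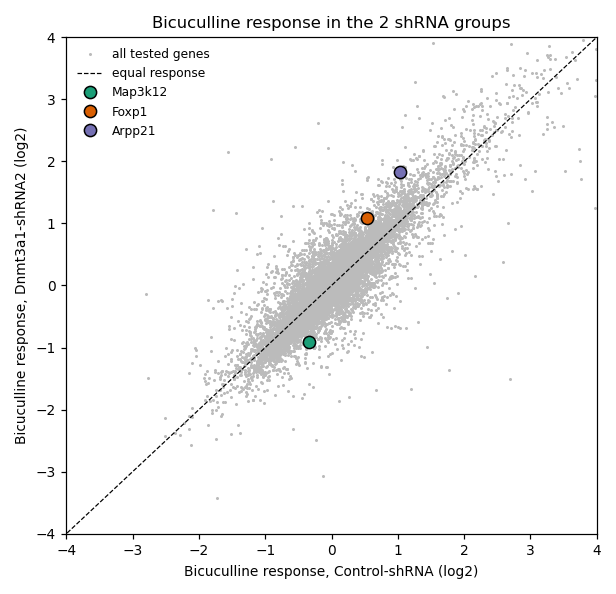
Log2 bicuculline response in Control-shRNA (horizontal axis) against Dnmt3a1-shRNA2 (vertical axis) for 17222 tested genes in grey, with the 3 chosen genes in colour and the line of equal response dashed; 81 genes lie outside the axes, which end at 4. Foxp1 and Arpp21 lie above the line on the side of higher expression and Map3k12 below it on the side of lower expression, and other genes lie farther from the line than these 3.

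Taken replicate by replicate, each difference of log2 responses had the same sign in 4 of 4 replicate numbers. It ran from -0.83 to -0.36 in Map3k12, from 0.41 to 0.68 in Foxp1 and from 0.60 to 1.02 in Arpp21. The interaction that chose the genes rests on these same differences, so the choice favours a shared sign. On the CPM scale itself, where a response is an amount and not a proportion of its baseline, the values were less uniform. Map3k12 lost 28.5 ± 1.76 CPM with bicuculline in Control-shRNA and 34.9 ± 8.38 CPM in Dnmt3a1-shRNA2 (SD, n = 4), and the difference of -6.38 ± 8.06 CPM ran from -15.3 to 1.66. Arpp21 gained 289 ± 104 CPM in Control-shRNA and 368 ± 45.7 CPM in Dnmt3a1-shRNA2, and the difference of 79.1 ± 81.3 CPM ran from -14.9 to 147. In both genes, 1 of the 4 replicate numbers had the opposite sign on this scale. Foxp1 gained 25.8 ± 5.46 CPM in Control-shRNA and 45.6 ± 6.06 CPM in Dnmt3a1-shRNA2, and its difference of 19.7 ± 7.59 CPM was positive in 4 of 4, from 10.1 to 27.4 CPM. For Map3k12 and Arpp21 the mean difference in CPM was smaller than its SD, and of the 3 genes only Foxp1 had the same sign on both scales in every replicate number. The CPM scale was added after the values were seen.

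**Figure D4:**
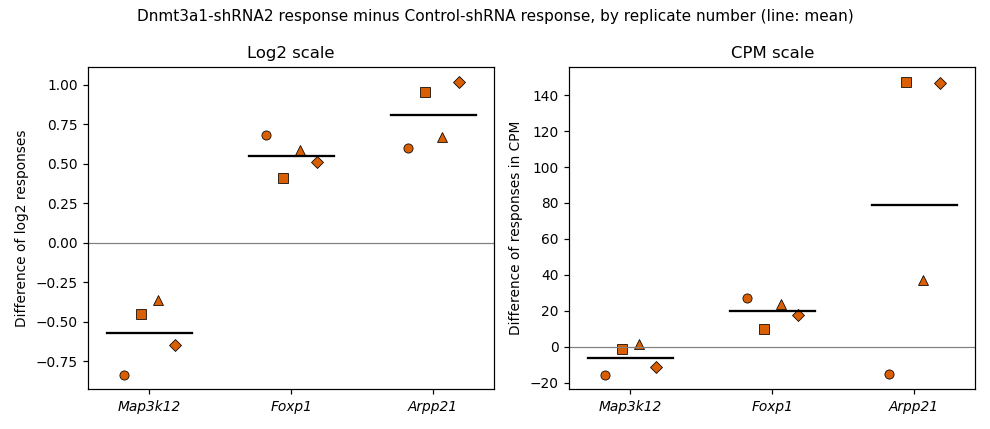
Response in Dnmt3a1-shRNA2 minus response in Control-shRNA for each replicate number (symbols) and the mean of 4 (line), on the log2 scale in the left panel and in CPM in the right panel. All points of a gene lie on 1 side of 0 on the log2 scale, which the choice of the genes favours. On the CPM scale Map3k12 reaches 1.66 and Arpp21 reaches -14.9 on the other side.

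The ratio of estimated count to TPM gives the average transcript length behind a gene's reads, which was read relative to the median gene of each library. Foxp1 stood at 1.56 and 1.49 times the median length in baseline and at 1.36 and 1.34 times with bicuculline (Control-shRNA and Dnmt3a1-shRNA2). Averaged over both shRNAs, its length fell by 0.17 on the log2 scale (SE 0.040, limma, adjusted p = 0.00703). Within Control-shRNA and within Dnmt3a1-shRNA2 alone the change of Foxp1 did not pass (log2 -0.19 and -0.15, limma, adjusted p = 0.079 and 0.0784). Arpp21 shortened less, by a log2 difference of -0.084 (SE 0.0098, limma, adjusted p = 7.09e-04). Map3k12 had a difference of 0.0069 (SE 0.011, limma, adjusted p = 0.677). Of 16961 genes with a length in every library, 36.3% were called, 5177 genes as longer and 972 (5.73%) as shorter. A difference at or below that of Map3k12 was present in 37.5% of genes, so 0 was not the middle of all differences. Of all these genes, 4.53% were shorter by at least as much as Foxp1 and 10.5% by at least as much as Arpp21. The knockdown difference in length did not pass the test for Map3k12, Foxp1 or Arpp21 (limma, adjusted p = 0.919, 0.584 and 0.303), with 0.542% of genes called. The length of a gene moves when the estimated shares of its transcripts move. The tables hold gene sums, so the transcripts concerned are not named. This measure was added after the values were seen.

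Other annotated genes overlap the 3 loci, and the sources used here do not give a strand setting for the counting, so reads of overlapping exons on opposite strands cannot be told apart. The 3′ end of Map3k12 shares 1573 exon bases with Pcbp2, an RNA-binding protein gene on the plus strand. Pcbp2 rose with bicuculline in both shRNA groups, by 0.32 in Control-shRNA and 0.18 in Dnmt3a1-shRNA2 on the log2 scale (edgeR, adjusted p = 4.62e-06 and 0.00109), and its interaction was -0.14 (adjusted p = 0.495). The long noncoding RNA 2900079G21Rik shares 580 exon bases with the 5′ end of Arpp21 on the opposite strand. It was lower with the knockdown in baseline (log2 -0.27, edgeR, adjusted p = 0.0136) and with bicuculline (-0.32, adjusted p = 0.00462), with responses to bicuculline of 0.03 and -0.03. Gm20696, on the strand of Foxp1, shares 300 exon bases with it and held 1.05 to 22.4 counts per library. The hairpin Mir128-2 lies within Arpp21 on the same strand, on chromosome 9 from 112118636 to 112118711, and was listed at 0 counts in all 16 libraries. It spans 76 bases, shorter than the reads the paper describes, so 0 counts do not show that the microRNA is absent. The mature 3′ product of Mir128-2, from RefSeq with the seed at bases 2 to 8 in capitals, is shown because its host gene is among the 3.
mmu-miR-128-3p: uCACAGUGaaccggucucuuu
The same product is made from another hairpin in an intron of R3hdm1, a paralog of Arpp21.

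For each of the 3 genes, a list of related genes was taken from general knowledge of its pathway, and its members were tested in the same fit. Of 20 genes of DLK and JNK signalling, all were tested. In Control-shRNA 3 rose and 2 fell with bicuculline at an absolute log2 fold change over 0.5, which is 25.0% of the list against 23.1% of all tested genes. The JNK-responsive transcription factors Jun (log2 2.42, SE 0.104) and Atf3 (5.44, SE 0.296) rose, as did the stress factor Ddit3 (0.73, SE 0.105). The JNK scaffold Mapk8ip2 (-0.51) and the apoptosis gene Bbc3 (-1.29) fell. In Dnmt3a1-shRNA2 the same 5 genes passed in the same directions, again 25.0% against 26.8% of all genes, with Jun at 2.42, Atf3 at 5.86 and Ddit3 at 0.78. Map3k13, the closest paralog of Map3k12, held log2 responses of 0.09 and 0.35, neither over the fold threshold. The list's median response was 0.06 in Control-shRNA and 0.07 in Dnmt3a1-shRNA2. Between shRNAs 0 of 20 passed both the adjusted p and the fold threshold in either condition, and voom and DESeq2 also called 0. By edgeR 5 genes in baseline and 6 with bicuculline had an adjusted p under 0.05 with a smaller fold change, and as many had an unadjusted p under 0.05. All genes tested gave 7.46% and 7.77% in these 2 comparisons with the fold threshold. Without it, 4743 and 5158 of all 17222 genes had an adjusted p under 0.05. The call of Mapk8ip2 in Control-shRNA stood at the fold threshold, and was lost without Control-shRNA baseline replicate 1 or 4 or Control-shRNA bicuculline replicate 1 or 3, with log2 values of -0.50 to -0.49.

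Of 17 genes listed for the Foxp family and its binding factors, 16 were tested and Foxp3 was not. In Control-shRNA 2 rose with bicuculline and 1 fell, or 18.8% of the tested list against 23.1% of all tested genes, and the share in Dnmt3a1-shRNA2 was also 18.8%, against 26.8%. The orphan nuclear receptors Nr2f1 (log2 0.91, SE 0.048) and Nr2f2 (0.92, SE 0.055) rose, and Gatad2b, a subunit of the NuRD repressor complex, fell (-0.54, SE 0.058). In Dnmt3a1-shRNA2 the same 2 rose, Nr2f1 by 0.91 and Nr2f2 by 1.17, and Foxp2 fell (-0.57, SE 0.209, adjusted p = 0.0295). The list's median response was 0.09 and 0.02. The paralogs of Foxp1 did not share its values. Foxp4 had log2 responses of -0.36 and -0.41, and Foxp2 was low throughout, with a mean of 1.46 CPM. Between shRNAs, Gatad2b was lower in baseline (-0.50, edgeR, adjusted p = 7.22e-06) and Foxp2 was lower with bicuculline (-0.63, edgeR, adjusted p = 0.0305), which is 6.25% of the list in each, against 7.46% and 7.77% of all tested genes. DESeq2 called neither. Both calls of Foxp2 were lost without the replicate block and when either Dnmt3a1-shRNA2 bicuculline replicate 3 or 4 was left out. Its response was also lost without Dnmt3a1-shRNA2 baseline replicate 3 or 4, and its knockdown difference without Control-shRNA bicuculline replicate 2 or 4, with log2 values of -0.51 to -0.39 for the response and -0.57 to -0.45 for the knockdown difference when a library was left out. The baseline call of Gatad2b was lost without Control-shRNA baseline replicate 1 or 4 or Dnmt3a1-shRNA2 baseline replicate 2 or 3, at -0.49 to -0.47.

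All 22 genes listed for the relatives of Arpp21, protein kinase A, calmodulin and cap-binding translation factors were tested. In Control-shRNA 4 rose with bicuculline and 0 fell, or 18.2% of the list against 23.1% of all tested genes. The paralogs R3hdm1 (log2 0.78, SE 0.064) and R3hdm2 (0.56, SE 0.058) rose together with Arpp19 (0.78, SE 0.057), an inhibitor of protein phosphatase 2A, and Prkar2a (1.54, SE 0.084), a regulatory subunit of protein kinase A. In Dnmt3a1-shRNA2 3 rose, or 13.6% against 26.8%, namely R3hdm1 (0.98), R3hdm2 (0.59) and Prkar2a (1.54), while Arpp19 stood at 0.47. The list's median response was 0.19 and 0.14. Both paralogs thus rose with bicuculline as Arpp21 did. Another regulatory subunit, Prkar2b, was the only gene of the list called between shRNAs, higher with the knockdown in baseline (0.55, edgeR, adjusted p = 1.21e-06) and with bicuculline (0.52, edgeR, adjusted p = 2.31e-06). That is 4.55% of the list in each condition, against 7.46% and 7.77% of all tested genes. R3hdm1 and R3hdm2 had baseline knockdown differences of -0.21 and -0.24, under the fold threshold. The call of R3hdm2 in Control-shRNA was lost without Control-shRNA bicuculline replicate 2 (log2 0.50), and that of Prkar2b with bicuculline without Control-shRNA bicuculline replicate 2 or Dnmt3a1-shRNA2 bicuculline replicate 1 or 2 (0.46 to 0.50). With library sizes only in place of TMM, both calls of R3hdm2 and both of Prkar2b were lost, with the same directions.

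No gene of the 3 lists was called for the interaction by edgeR or by voom with limma, of 20, 16 and 22 tested. At an unadjusted p under 0.05 edgeR gave 1, 3 and 3 genes, and DESeq2 called 1, Gatad2b (log2 0.33, adjusted p = 0.0252). Over all 17222 tested genes, edgeR gave 1564 at an unadjusted p under 0.05, and DESeq2 called 102. By edgeR the smallest adjusted p in the lists was 0.202, also for Gatad2b, whose response was -0.54 in Control-shRNA and -0.21 in Dnmt3a1-shRNA2.

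**Figure D5:**
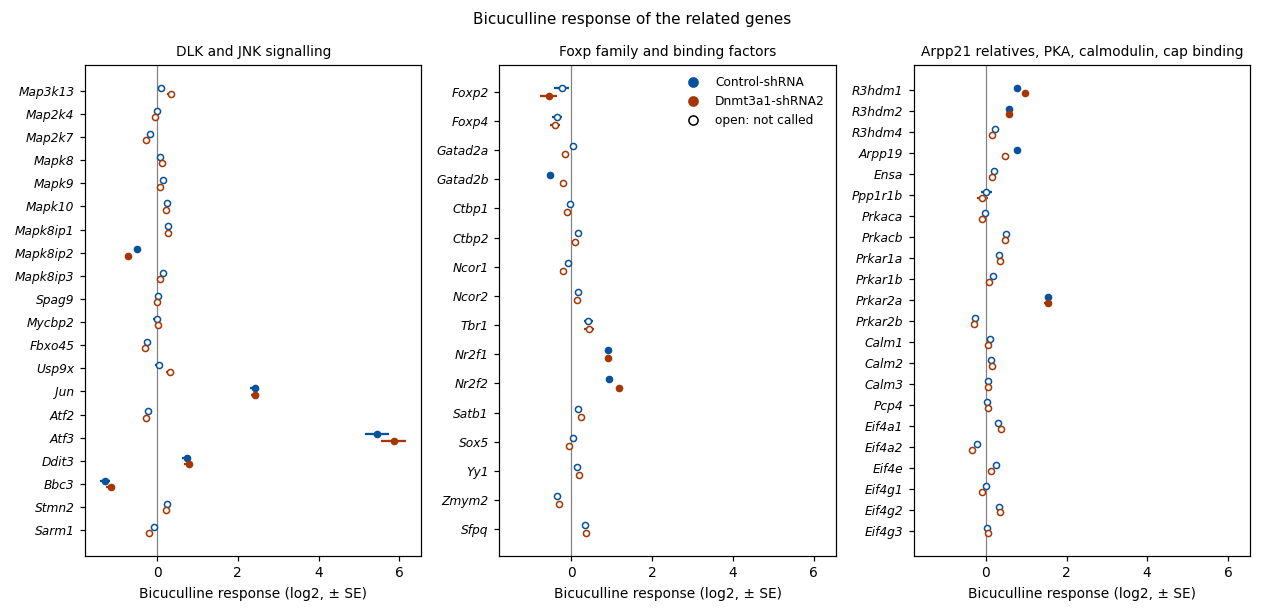
Log2 bicuculline response (horizontal axis, ± SE from edgeR) of each tested gene of the 3 lists in Control-shRNA and Dnmt3a1-shRNA2; filled points passed an adjusted p under 0.05 with an absolute log2 fold change over 0.5, open points did not. Jun at 2.42, Atf3 at 5.44 and 5.86 and Prkar2a at 1.54 stand out, and most genes lie near 0 in both groups.

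The 3 genes closest to each chosen gene were found by Pearson's r of log2 CPM over the 16 libraries in a search of 13879 genes whose mean was 1 CPM or more. Because the 16 libraries share the same 4 groups, such values describe likeness over the groups and carry no test. Closest to Map3k12 were Ndufaf7 (r = 0.986), Fam131b (0.984) and Dnal1 (0.983), all lower with bicuculline and lower with the knockdown. Their log2 responses went from -0.24 to -0.68, from -0.27 to -0.57 and from -0.27 to -0.60 between Control-shRNA and Dnmt3a1-shRNA2. Closest to Foxp1 were Ehd4 (0.978), an endocytic recycling protein, Clcn5 (0.974), a chloride transporter, and Garem1 (0.970), with responses of 1.12 to 1.73, 0.56 to 0.92 and 0.51 to 0.79. Closest to Arpp21 were Ppp1r2 (0.984), an inhibitor of protein phosphatase 1, the transcript A330084C13Rik (0.980) and Ptgs2 (0.979), which encodes cyclooxygenase-2. Their responses were 0.60 to 0.95, 2.25 to 2.93 and 4.80 to 6.32. Each of these 9 genes had a larger response in Dnmt3a1-shRNA2 than in Control-shRNA, which the choice by likeness favours.

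Markers of other cells moved with the groups as well. The astrocyte markers Gfap, Slc1a3, Aqp4 and Aldh1l1 summed to 211 to 377 CPM in Control-shRNA baseline, 232 to 466 with bicuculline, 284 to 507 in Dnmt3a1-shRNA2 baseline and 391 to 570 with bicuculline. The 3 GABAergic markers summed to 1170 to 1489, 1715 to 2168, 890 to 1175 and 1455 to 1911 CPM in the same order, and the order of their group means from high to low was Control-shRNA bicuculline, Dnmt3a1-shRNA2 bicuculline, Control-shRNA baseline, Dnmt3a1-shRNA2 baseline, which is also the order of Arpp21. The 4 markers of excitatory neurons summed to 2351 to 2590, 2276 to 2491, 2092 to 2319 and 1975 to 2305 CPM in the order of groups used for the astrocyte markers. Among them Slc17a6 and Neurod6 had opposite log2 responses in Control-shRNA, 1.52 and -1.27. In the same order of groups, the means of the excitatory markers were 2421, 2365, 2225 and 2132 CPM, falling as those of Map3k12 did. The means of the astrocyte markers were 282, 352, 390 and 484 CPM, the reverse of the order of Map3k12. Fewer cells of a type and less RNA per cell cannot be told apart in such bulk samples, and the part of these markers in the levels of Map3k12, Foxp1 and Arpp21 was not tested.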

How the data were processed

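RNA from 16 libraries of primary hippocampal cultures was analysed, 4 in each of 4 groups, Control-shRNA and Dnmt3a1-shRNA2 in baseline and after 4 h of bicuculline. Groups and replicate numbers come from the sample labels, and the number of the knockdown construct from the study's methods. Per the labels, reads were trimmed with Trim Galore 0.6.4 and quantified with kallisto 0.4.6 on GRCm38.p6. The authors deposited an estimated count per gene, not scaled for depth, and a TPM value per gene, scaled for transcript length and library total. Of 55385 identifiers, 55144 matched GENCODE release M21 without the version and 54487 with it.

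Estimated counts were rounded and fitted with edgeR 4.0.16 in R 4.3.3 (TMM scaling, filter on low counts by group, quasi-likelihood test, 4 groups and the replicate number as a block), and 17222 genes were tested. Adjustment followed Benjamini-Hochberg over all of these genes. Calls required an adjusted p under 0.05, and within one shRNA or condition also at an absolute log2 fold change over 0.5. CPM values were scaled by TMM factors of 0.871 to 1.12. Library totals of 28912697 to 29586355 left at least 905 estimated counts of each of the 3 genes in every library. With the block, p-values measure the spread between libraries that is left after shifts shared by a replicate number are removed. The 4 groups share 1 estimate of this spread. Implied lengths were tested with limma 3.58.1. The fit was also run on counts simulated with no effect of the replicate number, so that run could not check the block.

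The 3 genes and the lists of related genes were chosen with earlier results of these data known. A listed gene is not reported here and was left out of the counts of its list. Named genes are these 3, the called genes of the lists (up to 4 by size for each list and comparison) and fixed paralogs, the 3 genes most like each, the next 3 by the interaction p, overlapping genes, and Dnmt3a, Arc, Fos and Npas4. Gatad2b, Arpp19, Prkar2b and marker genes are also named where a value turns on them.

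Same-numbered libraries deviated together, with Pearson's r of 0.0631 to 0.388 over 17222 genes and above 0.1 in 14 of 16 pairs, so the numbers do not pair the libraries beyond doubt. The block is in the main fit because the choice of the genes used it. Over the 24 pairs of libraries within a group, the chi-square was 7.64 to 42.6 times its degrees of freedom, so none was a repeat of another.

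The alternatives were no replicate block, voom with limma, DESeq2 1.42.0, DESeq2's size factors, library sizes only, no filter, at least 10 counts in every library, log2(TPM + 1) and log2(TPM + 0.1) with limma, no fold threshold, Spearman's rho for likeness, and each library left out.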

Additional observations from a re-analysis of the deposited data

Results flagged for a closer look

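The bicuculline response differed between the 2 shRNA groups by a log2 value of -0.57 in Map3k12, 0.55 in Foxp1 and 0.80 in Arpp21. These are the values for which the 3 genes were chosen, so the difference is a description of the choice. In 15 sets of 4 values, the 12 groups of libraries and the 3 sets of double differences, 0 held a value farther from the others than Dixon's 95% limit allows. The value nearest to that limit was the Dnmt3a1-shRNA2 bicuculline replicate 1 of Map3k12, with a gap ratio of 0.812.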

How the results depend on the processing

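The 3 interaction values, the 3 average bicuculline responses and the 3 average knockdown differences kept their direction in 25 alternatives each, and the 6 averages stayed under an adjusted p of 0.05 (largest 0.00112, Foxp1 knockdown difference). Interaction values ranged from -0.62 to -0.50 in Map3k12, 0.49 to 0.60 in Foxp1 and 0.73 to 0.91 in Arpp21 with 1 library left out. In CPM, an alternative chosen after seeing the data, they were -6.38, 19.7 and 79.1. The implied lengths of Foxp1 and Arpp21 kept their calls without the block and without each library.

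The count of interaction calls, 3 in edgeR with the block, depended most on the processing. Of 17222 tested genes, it was 0 with no replicate block (852 genes at an unadjusted p under 0.05) and 14 with voom. Of the same 17222 genes it was 102 with DESeq2, 16 with DESeq2's size factors and 15 with library sizes only. The count was 320 of 37314 genes with no filter beyond genes without counts, and 20 of 14472 with at least 10 counts in every library. On the TPM scale with limma it was 0 of 17222 at a pseudocount of 1 or 0.1 (1286 and 1263 genes at an unadjusted p under 0.05). Leaving out 1 library gave 0 to 29, with 17463 to 17511 genes tested. It gave 0 without Control-shRNA baseline replicate 2, 3 or 4 or Dnmt3a1-shRNA2 baseline replicate 1 or 4, and 29 without Dnmt3a1-shRNA2 bicuculline replicate 3. The cause was not tested. All 3 genes passed in 6 of the 9 other fits with every library and in 5 of the 16 fits with 1 library left out, and 0 of the 3 passed in 6 of these 16. These fits reuse the libraries and the contrast that chose the genes, so a pass is not independent support.

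Without a fold threshold the counts were 8756 and 9398 for bicuculline in Control-shRNA and Dnmt3a1-shRNA2 and 4743 and 5158 for the knockdown in baseline and with bicuculline. Library sizes only moved the median response of all genes in Control-shRNA from 0.00 to -0.15, the TPM scale moved it to -0.14 (pseudocount 1) and -0.19 (0.1), and the 3 genes kept their directions. Among the lists, the Foxp count for the knockdown with bicuculline went from 1 to 0 with no replicate block, the Foxp count for bicuculline in Control-shRNA went from 3 to 5 with library sizes only, and the Arpp21 counts for the knockdown in baseline and with bicuculline went from 1 to 0 with library sizes only. With 1 library left out, the Foxp counts for the knockdown in baseline and with bicuculline, and the Arpp21 count with bicuculline, ranged from 0 to 1 each. The fit with no replicate block moved no other list count by more than 1.5 times. By Spearman's rho, 0, 1 and 0 of the 3 genes most like Map3k12, Foxp1 and Arpp21 were the same.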

Other observations

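The genes most like each of the 3 by Spearman's rho were others than by Pearson's r, apart from Ehd4 for Foxp1 (rho = 0.953). They were Fbxo22 (0.982), Fnta (0.968) and Ash2l (0.968) for Map3k12, Mast4 (0.941) and Hipk2 (0.929) for Foxp1, and Armcx2 (0.979), Crem (0.976) and Efr3a (0.974) for Arpp21. Crem, a cAMP-responsive transcription factor, had log2 responses of 1.81 in Control-shRNA and 2.26 in Dnmt3a1-shRNA2. Fbxo22, a ubiquitin ligase subunit whose level was ordered like that of Map3k12, had responses of -0.61 and -0.60.

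Promoter windows of the 3 genes were searched on both strands for 4 motifs. The full cAMP response element TGACGTCA was in 0 of 2 windows of Map3k12, 0 of 3 of Foxp1 and 0 of 9 of Arpp21, and in 1.79% of all windows. The part TGACG, which also lies within the full element, was in 1, 1 and 3 windows, and in 20.8% of all windows. The AP-1 motif TGANTCA was in 1 window of Arpp21 and 7.81% of all windows. The E-box CACGTG was in 1 window of Map3k12 and 7.15% of all windows. These are matches of letters in windows of 300 bases.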
